A study of Mus musculus with 10 samples.

Results

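The genes described here encode constitutive subunits of the proteasome core (the 20S particle) and of its cap (the 19S regulatory particle), together with chaperones that assemble the cap. They were taken as every gene of the count table whose symbol is Psma, Psmb, Psmc or Psmd followed by a number. Psmb5 to Psmb10, the catalytic subunits of the constitutive core and of the immunoproteasome, were left out, as were genes with fewer than 100 counts summed over all 10 libraries. Of 39 matching symbols, 6 were left out by name and 2 by their counts. Psma8, which replaces an alpha subunit in the spermatogenic proteasome, had 0 counts in all libraries, and Psmb11, the catalytic subunit of the thymoproteasome, had 54 counts over all of them. The remaining 31 of 77175 entries were 11 core genes and 20 genes called cap genes here, 3 of which encode assembly chaperones of the cap, and all 31 were among the 15526 genes with enough counts to be tested.

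The core is a barrel of stacked rings, in which the outer alpha rings gate the entry and the inner beta rings hold the cleaving sites. The cap binds ubiquitin chains, removes them, unfolds the substrate with a ring of ATPases and feeds it into the core. Cells exposed to interferon gamma (IFN-γ) can place inducible catalytic subunits into newly built cores, and these immunoproteasomes, known for producing peptides for antigen presentation, use the same alpha subunits and the same non-catalytic beta subunits as the constitutive core.

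Bulk RNA sequencing covered 2 lines of B16-F10, a mouse melanoma, in 4 groups. These were B16-F10-OVA cells given 50 ng/ml IFN-γ for 24 h (treated OVA, 3 libraries), untreated B16-F10-OVA cells (untreated OVA, 2 libraries), B16-F10 cells given the same IFN-γ (treated WT, 3 libraries) and untreated B16-F10 cells (untreated WT, 2 libraries). The OVA line carries a lentiviral vector in which the EF1A promoter drives ovalbumin, a model antigen, beside a neomycin resistance gene, and whether it is a single clone is not given in the sources used here. The series set out to learn if both lines answer IFN-γ in the same way.

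Library totals ran from 17728722 to 19642533 counts, and the first principal component, with 72.9% of the variance, separated treated from untreated libraries. The melanocyte lineage markers of this tumour were high throughout, with a sum over 8 genes of 30810 to 32050 CPM (counts scaled to a common library size) in treated and 29450 to 30020 CPM in untreated libraries. Leukocyte markers summed to at most 0.219 CPM, with Ptprc and Cd3e at 0 counts throughout. Epithelial markers summed to at most 1.575 CPM, with Epcam and Krt8 at 0, and endothelial markers to at most 0.952 CPM, with Kdr at 0. The 5 fibroblast markers summed to 4.18 to 5.79 CPM in treated and 6.33 to 7.62 CPM in untreated libraries, and the part of this difference in the results was not tested. Nothing in the labels says that replicates are separate cultures, so p-values measure the spread between these libraries, which may be technical. In bulk RNA, fewer cells expressing a gene and less RNA per cell cannot be told apart.

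With IFN-γ, all 11 core genes rose in both lines, and 11 or 12 of the 20 cap genes rose, with smaller estimates. In OVA cells 22 of the 31 genes rose and 0 fell at an adjusted p under 0.05 (edgeR's quasi-likelihood test, Benjamini-Hochberg over all tested genes), where 48.8% of all tested genes changed, 25.9% up and 22.9% down. In WT cells 23 of the 31 rose and 0 fell, where 44.2% of all tested genes changed, 24.5% up and 19.7% down. The core genes had a median log2 change of 0.51 in OVA cells (range 0.28 to 1.02) and of 0.51 in WT cells (range 0.17 to 0.89). Among the 20 cap genes, 11 rose in OVA cells and 12 in WT cells, with medians of 0.15 in each line and ranges of -0.062 to 0.28 in OVA cells and -0.078 to 0.30 in WT cells. Over all tested genes the median was 0.0018 in OVA cells and 0.011 in WT cells.

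The treated libraries lay above every untreated library of the line for 25 of the 31 genes in OVA cells, against 34% of all tested genes, and for 25 in WT cells, against 33%. They lay below every untreated library for 1 gene in OVA cells (31.7% of all tested genes) and for 3 in WT cells (29%). A change of at least 1.5-fold was seen for 5 core genes and 0 cap genes in each line. In OVA cells each core gene rose by more than any cap gene changed, with Psma6 the lowest core gene and Psmd10 the highest cap gene, both at a log2 change of 0.28 after rounding. For WT cells this held for 10 of the 11 core genes, since Psma6 changed by less than several cap genes, among them Psmd7, Psmd4 and Psmc3. Across the alternatives it held for 9 to 11 core genes in OVA cells and 9 to 10 in WT cells. The difference between core and cap was not tested. With upper quartile scaling, 1 cap gene was called lower in OVA cells (Psmd2) and 3 in WT cells (Psmd2, Psmd6 and Psmd13), while all 11 core genes rose in each line under every alternative tried.

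**Figure D1:**
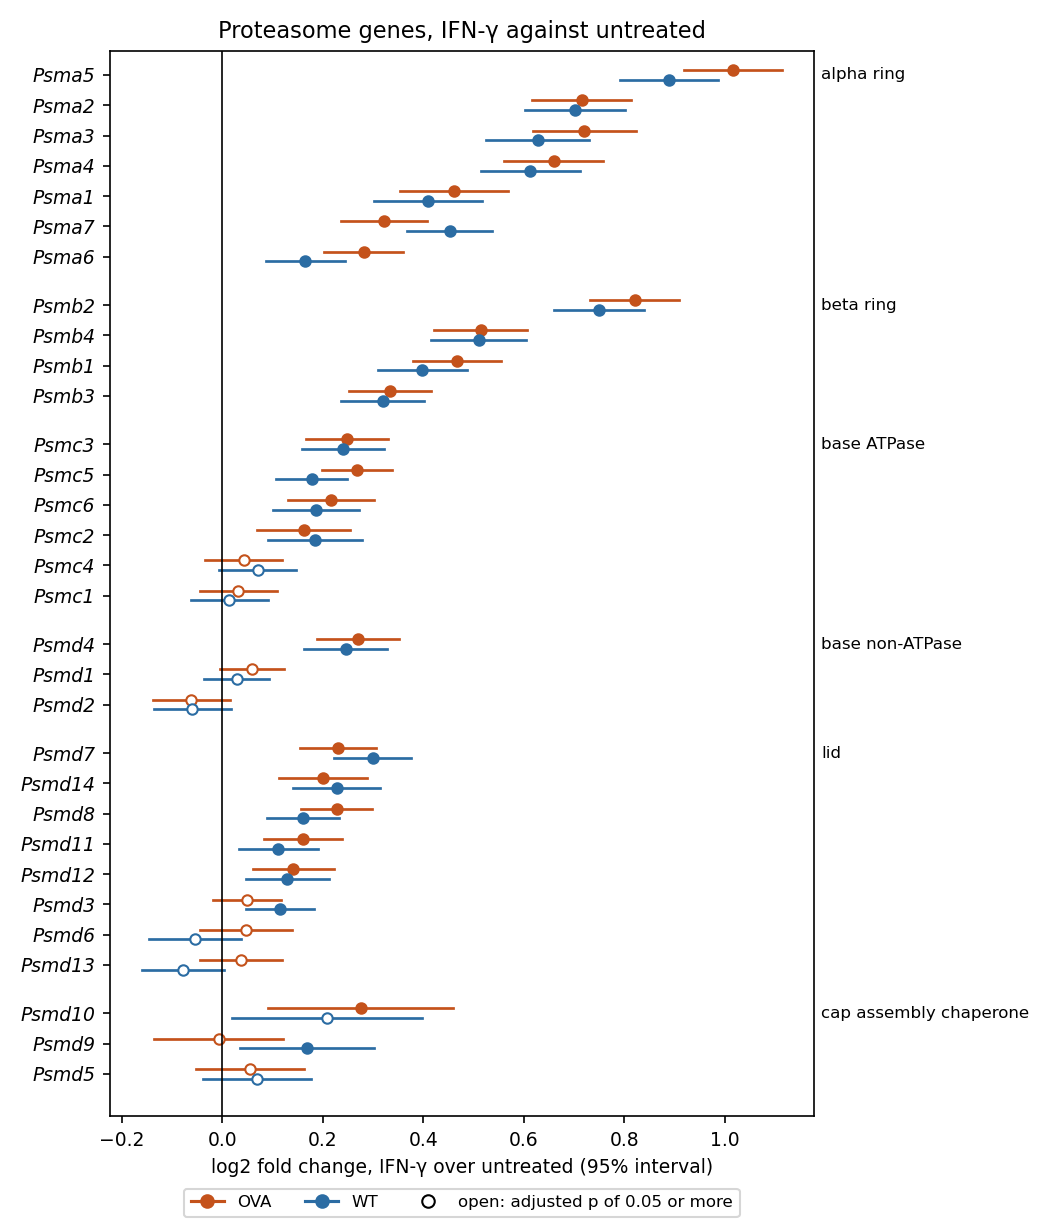
Log2 fold change of each of the 31 genes with IFN-γ in OVA cells (orange) and WT cells (blue), with 95% intervals, grouped by role; open circles had an adjusted p of 0.05 or more. The alpha and beta ring genes sit between 0.17 and 1.02, and the cap genes between -0.078 and 0.30.

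The alpha ring forms the outer face of the core, on which the cap docks. All 7 of its genes rose in each line, with median log2 changes of 0.66 in OVA cells and 0.61 in WT cells. Psma5, an alpha subunit, changed the most of all 31 genes in each line. It measured 167, 169 and 176 CPM in treated OVA libraries and 84.5 and 84.1 CPM in untreated OVA libraries. In WT cells it measured 154, 153 and 169.7 CPM with IFN-γ and 86.4 and 84.9 CPM without. Treated and untreated libraries were far apart in both lines, with replicate 3 the highest of the treated WT group. The log2 change was 1.02 in OVA cells (SE 0.046, adjusted p = 7.29e-12, edgeR) and 0.89 in WT cells (SE 0.046, adjusted p = 5.38e-11, edgeR).

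Psma3 and Psma2, also alpha subunits, were next in this ring. Psma3 measured 189, 201 and 192 CPM in treated OVA libraries, against 118 and 117 CPM in untreated OVA libraries. Its levels were 173, 169 and 187 CPM in treated WT libraries, against 119.5 and 109 CPM in untreated WT libraries. The groups did not overlap within either line, and the log2 changes were 0.72 in OVA cells (SE 0.048, edgeR adjusted p = 1.56e-09) and 0.63 in WT cells (SE 0.048, edgeR adjusted p = 1.15e-08). Psma2 measured 131, 128 and 132 CPM in treated OVA libraries, against 80.8 and 77.8 CPM in untreated OVA libraries. In treated WT libraries Psma2 measured 116, 118 and 129 CPM, against 76.0 and 72.9 CPM in untreated WT libraries. Both lines were again fully separated by treatment, with log2 changes of 0.71 in OVA cells (SE 0.046, edgeR adjusted p = 1.06e-09) and 0.70 in WT cells (SE 0.047, edgeR adjusted p = 1.74e-09).

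Psma4, whose yeast counterpart has a tail that helps to close the gate, rose by 0.66 log2 units in OVA cells and 0.61 in WT cells. Psma1, another alpha subunit, rose by 0.46 in OVA cells and 0.41 in WT cells. Psma7 and Psma6 complete the ring. Psma7 measured 159, 169.9 and 157 CPM in treated OVA libraries and 126 and 134 CPM in untreated OVA libraries, a log2 change of 0.32 (SE 0.040). In WT cells its log2 change was 0.45 (SE 0.040), with 169.8, 167 and 174 CPM in treated and 124 and 125 CPM in untreated libraries. Psma7 was the only alpha subunit with a larger estimate in WT cells than in OVA cells, and that difference did not pass the adjusted test. Psma6 measured 111, 116 and 116 CPM in treated OVA libraries and 93.1 and 95.3 CPM in untreated OVA libraries, a log2 change of 0.28 (SE 0.037). It measured 103, 101 and 105 CPM in treated and 92.6 and 91.1 CPM in untreated WT libraries, a log2 change of 0.17 (SE 0.037, edgeR adjusted p = 0.00166). Even for Psma6, the lowest responder of the core, no treated library of a line came down to an untreated one.

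**Figure D2:**
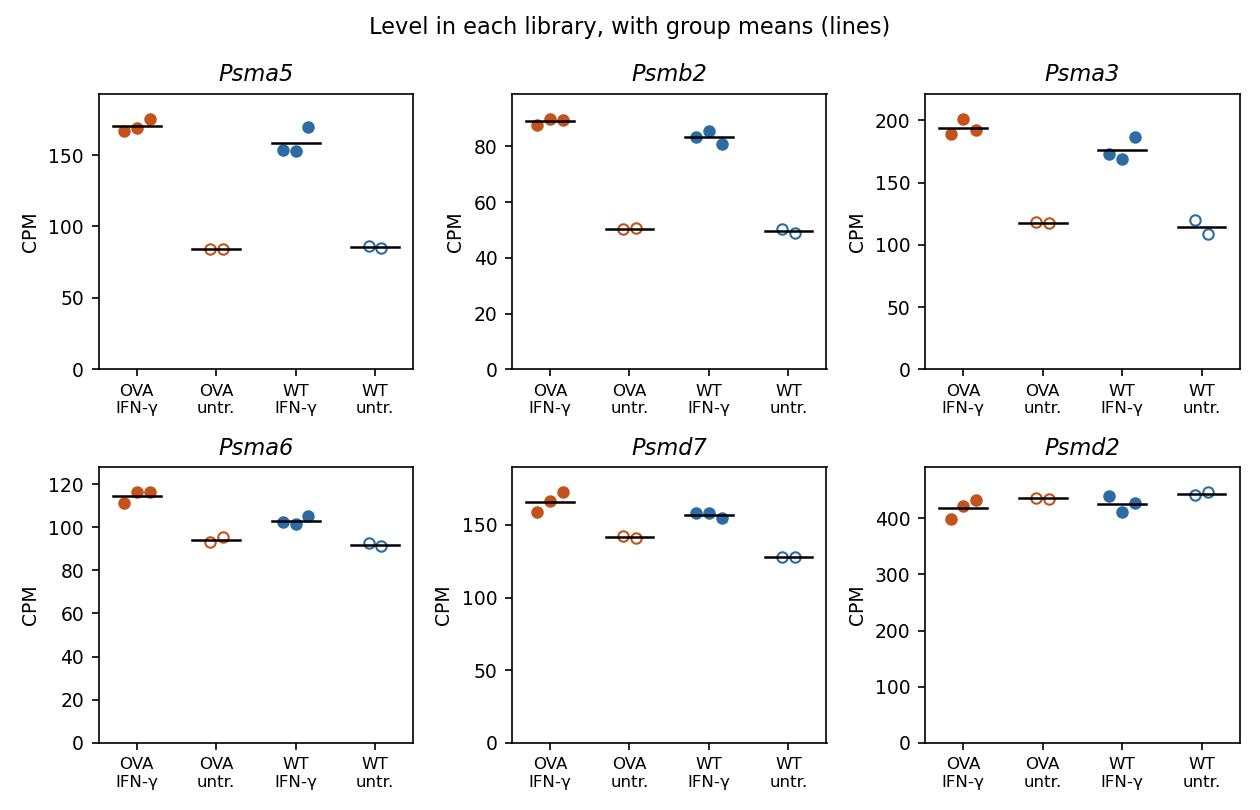
Level in CPM of 6 of the genes in each library (points) with the group means (lines), on axes that start at 0, for treated OVA, untreated OVA, treated WT and untreated WT cells. Psma5, Psmb2 and Psma3 are separated widely by treatment, Psma6 and Psmd7 narrowly, and Psmd2 is slightly lower in the treated libraries of each line, a change that did not pass the test.

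The 4 beta subunits considered here carry no cleaving site and build the beta rings together with the catalytic subunits. All 4 rose in each line, with median log2 changes of 0.49 in OVA cells and 0.45 in WT cells. Psmb2 responded most among them and second among all 31 genes. It measured 87.6, 90.0 and 89.5 CPM in treated OVA libraries, against 50.2 and 50.6 CPM in untreated OVA libraries. Its levels were 83.4, 85.5 and 81.0 CPM in treated WT libraries, against 50.2 and 48.8 CPM in untreated WT libraries. The log2 change was 0.82 in OVA cells (SE 0.042, edgeR adjusted p = 3.71e-11) and 0.75 in WT cells (SE 0.042, edgeR adjusted p = 1.54e-10), and the groups did not overlap.

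Psmb4, which in yeast is the last beta subunit to join a forming core, rose by 0.51 log2 units in OVA cells and 0.51 in WT cells. Psmb1 measured 157, 167 and 163 CPM in treated OVA libraries, against 114 and 121 CPM in untreated OVA libraries, a log2 change of 0.47. In WT cells Psmb1 measured 142, 145 and 152 CPM with IFN-γ, against 113 and 109 CPM without, a log2 change of 0.40. Psmb3 rose by 0.33 in OVA cells and 0.32 in WT cells, the smallest change of these 4 genes.

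Summed over the 11 genes, the core had 1665 ± 35.9 CPM in treated OVA cells (SD, n = 3) and 1129 ± 12.9 CPM in untreated OVA cells (SD, n = 2), a ratio of means of 1.48. In WT cells the core summed to 1561 ± 67.2 CPM with IFN-γ (SD, n = 3) and 1086 ± 19.8 CPM without (SD, n = 2), a ratio of 1.44. The 20 cap genes summed to 3499 ± 77.2 CPM in treated OVA cells and 3211 ± 39.5 CPM in untreated OVA cells, a ratio of 1.09. They summed to 3324 ± 54.7 CPM in treated WT cells and 3090.4 ± 20.3 CPM in untreated WT cells, a ratio of 1.08. The ratio of core to cap CPM was 0.473, 0.483 and 0.471 in treated OVA libraries, against 0.352 and 0.351 in untreated OVA libraries. It was 0.458, 0.464 and 0.487 in treated WT libraries, against 0.354 and 0.349 in untreated WT libraries. The untreated libraries of both lines lay within 0.349 to 0.354, apart from all treated ones. These sums weight abundant genes more, leave out the catalytic subunits Psmb5 to Psmb10, and were not tested.

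**Figure D3:**
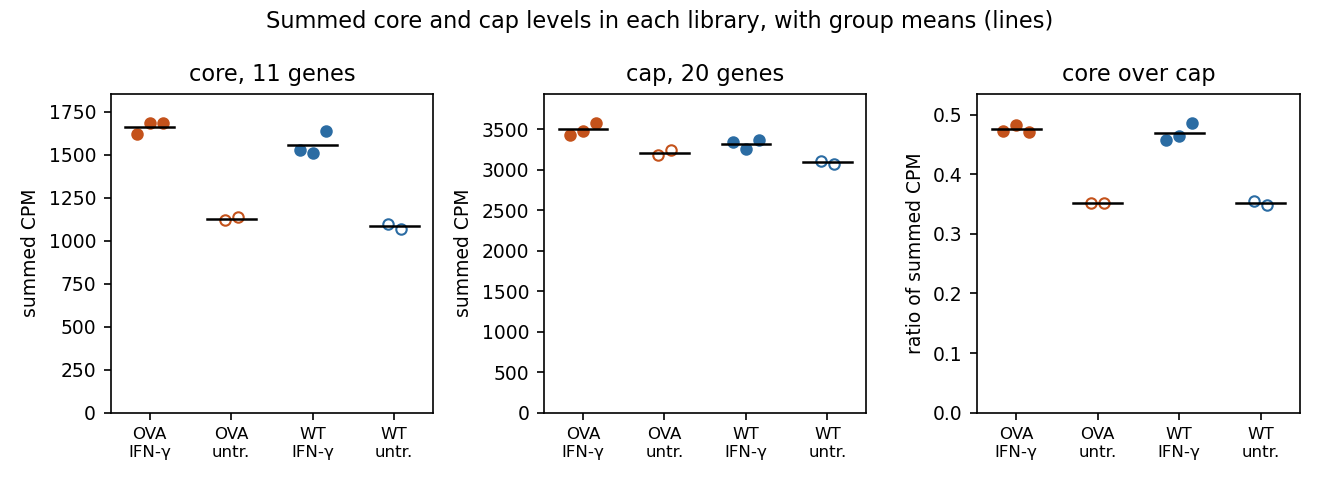
Summed CPM of the 11 core genes, of the 20 cap genes, and the ratio of both sums, in each library (points) with group means (lines), for treated OVA, untreated OVA, treated WT and untreated WT cells. The ratio is 0.349 to 0.354 in the 4 untreated libraries and 0.458 to 0.487 in the 6 treated libraries.

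The base of the cap is built around a ring of 6 ATPases, Psmc1 to Psmc6, which unfold substrates and open the gate of the core. Of these, 4 rose in each line, with a median log2 change over all 6 of 0.19 in OVA cells and 0.18 in WT cells. Psmc3, one of the ATPases whose tails dock into the alpha ring, measured 225, 228 and 239.8 CPM in treated OVA libraries and 191 and 198 CPM in untreated OVA libraries. In treated WT libraries it had 209.8, 207 and 223 CPM, against 180.3 and 181 CPM in untreated WT libraries. Every treated library was above every untreated one of its line, and the log2 changes were 0.25 in OVA cells (SE 0.038) and 0.24 in WT cells (SE 0.038). Psmc5, another ATPase of the ring, rose by 0.27 log2 units in OVA cells and 0.18 in WT cells. Psmc6 rose by 0.22 in OVA cells and 0.19 in WT cells, and Psmc2 by 0.16 in OVA cells and 0.18 in WT cells. Psmc1 and Psmc4, whose tails also dock into the alpha ring, did not pass the test in either line. The log2 changes of Psmc1 were 0.032 in OVA cells (95% interval -0.044 to 0.11) and 0.014 in WT cells (-0.063 to 0.091). Those of Psmc4 were 0.043 in OVA cells (-0.034 to 0.12) and 0.071 in WT cells (-0.0064 to 0.15). Without untreated OVA replicate 1, Psmc2 did not pass in OVA cells (edgeR adjusted p = 0.0991), nor did it under upper quartile scaling (edgeR adjusted p = 0.0602).

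The base also holds 3 larger or substrate-binding subunits without ATPase activity. Only Psmd4, a receptor for ubiquitin chains, rose, with 159.9, 158 and 164 CPM in treated OVA libraries and 128 and 138 CPM in untreated OVA libraries. In WT cells it had 141, 143 and 145 CPM with IFN-γ and 124 and 118 CPM without. The treatment separated the libraries of each line, with log2 changes of 0.27 in OVA cells (SE 0.038, edgeR adjusted p = 1.72e-05) and 0.25 in WT cells (SE 0.039, edgeR adjusted p = 6.64e-05). Psmd1, a scaffold subunit, had log2 changes of 0.059 in OVA cells (95% interval -0.0051 to 0.12) and 0.028 in WT cells (-0.036 to 0.092). Psmd2, the subunit that binds shuttle proteins carrying ubiquitinated substrates, did not pass the test. It measured 398, 422 and 433 CPM in treated OVA libraries, against 437 and 435 CPM in untreated OVA libraries. In WT cells it measured 440.2, 412 and 427 CPM with IFN-γ, against 441 and 447 CPM without. All treated libraries were below the untreated ones of their line, by a small margin. The log2 changes were -0.062 in OVA cells (edgeR adjusted p = 0.175) and -0.059 in WT cells (edgeR adjusted p = 0.203). The call of Psmd2 depended on 1 library, since it passed as lower in OVA cells without treated OVA replicate 3 (edgeR adjusted p = 0.0397) and in WT cells without treated WT replicate 1 (edgeR adjusted p = 0.0497).

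The lid is the part of the cap that removes ubiquitin from substrates. Of its 8 genes, 5 rose in OVA cells and 6 in WT cells, with median log2 changes of 0.15 in OVA cells and 0.12 in WT cells. Psmd14, the deubiquitinating enzyme of the lid, measured 121, 122 and 129 CPM in treated OVA libraries and 106 and 109.9 CPM in untreated OVA libraries. Its levels were 116, 119 and 124 CPM in treated WT libraries and 103 and 101 CPM in untreated WT libraries. It rose by 0.20 log2 units in OVA cells (SE 0.041) and 0.23 in WT cells (SE 0.041), and no libraries overlapped. Psmd7, the partner with which Psmd14 forms a heterodimer, measured 159, 166 and 173 CPM in treated OVA libraries and 142 and 141 CPM in untreated OVA libraries. In WT cells Psmd7 measured 158, 158 and 155 CPM with IFN-γ and 128 and 128 CPM without. Its change of 0.30 log2 units in WT cells (SE 0.036) was the largest of the cap in that line, and it changed by 0.23 in OVA cells (SE 0.036).

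The other 6 lid genes encode its scaffold subunits. Psmd8 rose by 0.23 log2 units in OVA cells and 0.16 in WT cells. Psmd11, which clamps the cap to the core, rose by 0.16 in OVA cells and 0.11 in WT cells, and Psmd12 by 0.14 in OVA cells and 0.13 in WT cells. Psmd3 passed in WT cells with a log2 change of 0.11 (edgeR adjusted p = 0.00797), and had 0.049 in OVA cells (edgeR adjusted p = 0.223). Psmd6 and Psmd13 passed in neither line. Psmd6 measured 75.4, 74.3 and 77.8 CPM in treated OVA libraries, all above the 73.5 and 73.3 CPM of the untreated OVA libraries. In WT cells Psmd6 had 72.8, 68.0 and 73.9 CPM with IFN-γ, all below the 74.4 and 74.2 CPM of the untreated libraries. The log2 changes of 0.048 in OVA cells and -0.055 in WT cells were not shown to differ (edgeR adjusted p of the difference = 0.593). Psmd13 had log2 changes of 0.037 in OVA cells and -0.078 in WT cells. Single libraries or the method carried some of these calls. Under upper quartile scaling Psmd3, Psmd11 and Psmd12 did not pass in WT cells, nor Psmd12 in OVA cells. DESeq2 did not call Psmd11 or Psmd12 in WT cells. Psmd12 did not pass without untreated replicate 1 of the line (edgeR adjusted p = 0.135 in OVA cells and 0.0906 in WT cells), Psmd3 in WT cells not without untreated WT replicate 1 or treated WT replicate 3 (0.0519 to 0.0664), and Psmd11 in WT cells not without any of 4 libraries, untreated replicate 2 and treated replicates 1 and 3 of WT and untreated replicate 1 of OVA (0.0509 to 0.171).

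Psmd5, Psmd9 and Psmd10 encode chaperones that help to assemble the base and are absent from the finished cap. Per kilobase of exon they were the least abundant of the 31 genes in all 4 groups, with group means of 10.0 to 15.1 CPM per kb. The next lowest, Psma2, had 25.6 to 44.7 CPM per kb, and the highest, Psmd8, 162 to 193 CPM per kb. By coding length the chaperones were also lowest, at 24.5 to 47.6 CPM per kb, and Psmd6 followed with 61.3 to 65.0 CPM per kb. Psmd10, also known as gankyrin, measured 23.1, 22.9 and 20.6 CPM in treated OVA libraries and 17.3 and 19.4 CPM in untreated OVA libraries, without overlap. In WT cells it had 19.1, 18.0 and 21.9 CPM with IFN-γ and 17.2 and 16.7 CPM without, also without overlap. It rose by 0.28 log2 units in OVA cells (SE 0.087, edgeR adjusted p = 0.0148) and had a change of 0.21 in WT cells (SE 0.089, edgeR adjusted p = 0.0693). Psmd9 passed in WT cells, at 0.17 (SE 0.063, edgeR adjusted p = 0.0393), with -0.0072 in OVA cells. It had 31.0, 31.4 and 32.1 CPM in treated OVA libraries, against 32.6 and 30.8 CPM in untreated OVA libraries, which overlapped, and 29.3, 27.6 and 30.9 CPM in treated WT libraries, against 27.2 and 24.9 CPM in untreated WT libraries, which did not. Psmd5 had log2 changes of 0.055 in OVA cells and 0.070 in WT cells, with overlapping libraries. These calls were fragile. DESeq2 did not call Psmd10 in OVA cells (adjusted p = 0.0531) or Psmd9 in WT cells (adjusted p = 0.188). The Psmd9 call in WT cells held in 4 of 19 alternatives. Psmd10 did not pass in OVA cells without untreated replicate 1 or treated replicate 1 or 2 of OVA (edgeR adjusted p = 0.0568 to 0.206) and passed in WT cells without treated WT replicate 2 (0.0279), and Psmd9 did not pass in WT cells without any one of 7 libraries, untreated replicate 2 and treated replicates 1 and 3 of WT, and untreated replicate 1 and all 3 treated replicates of OVA (0.0609 to 0.317).

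Promoter sequences are given for the 3 genes with the largest mean change and the 2 with the smallest among those with 1 promoter window in the RefSeq table (GRCm38.p6), to set strong and weak responders of the same complex side by side. Of the 31 genes, 26 matched the table, and Psmb2 was among those that did not. The windows searched ran from 250 bases before the transcription start to 50 after it, and the 250 bases before the start are printed 5′ to 3′ on the strand of the gene, which was the plus strand for all 5. They are chr3:108256676-108256925 (Psma5), chr13:14612992-14613241 (Psma2), chr12:70974373-70974622 (Psma3), chr7:140882144-140882393 (Psmd13) and chr16:20651402-20651651 (Psmd2). Capitals mark matches on either strand to the motifs named below.
Psma5: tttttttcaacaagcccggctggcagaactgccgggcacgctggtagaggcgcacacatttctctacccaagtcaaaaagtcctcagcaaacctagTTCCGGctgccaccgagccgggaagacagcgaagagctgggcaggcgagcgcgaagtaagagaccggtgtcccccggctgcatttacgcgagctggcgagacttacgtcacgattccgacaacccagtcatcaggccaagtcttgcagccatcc
Psma2: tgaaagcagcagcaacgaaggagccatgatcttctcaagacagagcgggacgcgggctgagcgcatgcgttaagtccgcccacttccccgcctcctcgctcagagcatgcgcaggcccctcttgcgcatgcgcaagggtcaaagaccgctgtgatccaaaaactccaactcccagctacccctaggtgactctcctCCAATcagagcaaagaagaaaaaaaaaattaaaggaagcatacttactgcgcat
Psma3: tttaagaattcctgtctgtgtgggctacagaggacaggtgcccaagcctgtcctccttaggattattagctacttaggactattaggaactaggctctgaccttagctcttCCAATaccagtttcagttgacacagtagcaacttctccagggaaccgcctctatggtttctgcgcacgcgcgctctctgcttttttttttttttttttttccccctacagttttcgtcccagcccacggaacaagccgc
Psmd13: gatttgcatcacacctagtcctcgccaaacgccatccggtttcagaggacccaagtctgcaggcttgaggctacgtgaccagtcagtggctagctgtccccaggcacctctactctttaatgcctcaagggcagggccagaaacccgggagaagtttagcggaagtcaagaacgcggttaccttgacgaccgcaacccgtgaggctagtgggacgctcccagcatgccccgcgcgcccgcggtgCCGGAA
Psmd2: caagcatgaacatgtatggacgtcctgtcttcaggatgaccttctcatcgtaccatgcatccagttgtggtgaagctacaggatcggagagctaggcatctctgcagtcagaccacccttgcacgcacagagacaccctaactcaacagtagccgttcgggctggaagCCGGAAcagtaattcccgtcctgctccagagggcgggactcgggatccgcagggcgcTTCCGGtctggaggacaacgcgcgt
The motifs searched were CCGGAA (the ETS core), CCAAT (the NF-Y box), TGACNNNGC (the core of the antioxidant response element), TTCNNNGAA (the gamma-activated site) and the interferon-stimulated response element (TTTC, any 2 bases, TTTC), on both strands, and none of the matches printed overlaps another motif.

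CCGGAA was in 15 of the 26 matched promoters (57.7%), 4 of 9 core and 11 of 17 cap promoters, against 16.7% of the promoters of 27025 genes. Those 27025 genes were not limited to genes tested here, and a share among tested genes alone was not counted. CCAAT was in 11 (42.3%), 6 of 9 core and 5 of 17 cap promoters, against 41.1% of all. TGACNNNGC was in 3 (11.5%, all cap), against 14% of all. TTCNNNGAA was in 1 (3.85%, Psmd2), against 9.55% of all, and in 0 of the 9 core promoters. The interferon-stimulated response element was in 3 (11.5%, Psmb3, Psmd4 and Psmd9), against 3.99% of all. Among the sequences above, Psma5 and both weak responders hold CCGGAA before the start, and Psma2 and Psma3 hold CCAAT. The CCGGAA match of Psma2 and the TTCNNNGAA match of Psmd2 lie outside the printed bases. A match describes the letters of the window and is not a mapped binding site, and the absence of a match says only that these letters are not in this window.

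The series asks whether both lines answer IFN-γ alike, and for the proteasome genes 0 of 31 passed the test of the difference of responses (OVA minus WT), where 0.341% of all tested genes passed, 0.0773% with a positive and 0.264% with a negative difference. DESeq2 and limma-voom also called 0, and 3 genes had an unadjusted edgeR p under 0.05. These were, with adjusted p from edgeR, Psma7, with a difference of -0.13 log2 units (adjusted p = 0.427), Psma6, with 0.12 (adjusted p = 0.448), and Psmd13, with 0.12 (adjusted p = 0.466), named after their values were seen. Estimates ran from -0.18 for Psmd9 (95% interval -0.36 to 0.0095) to 0.13 for Psma5 (-0.012 to 0.26). The widest interval was that of Psmd10, -0.20 to 0.33, so differences within that range were not excluded for that gene. For Psmb2 the interval was -0.055 to 0.20 and for Psma2 -0.13 to 0.15. Across the 31 genes the log2 changes of both lines had a Pearson r of 0.966 and a Spearman rho of 0.923, with the larger estimate in OVA cells for 22. The lines share no library here, but genes are not independent replicates, so this is a description.

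OVA cells were compared with WT cells directly, first without and then with IFN-γ. Untreated, 2 of 31 genes were higher in OVA cells and 0 lower, where 5.53% of all tested genes differed, 2.98% higher and 2.55% lower. All untreated OVA libraries lay above all untreated WT libraries for 22 of the 31 genes (26.4% of all tested genes) and below them for 3 (23.3%). The assembly chaperone Psmd9 measured 32.6 and 30.8 CPM in untreated OVA libraries and 27.2 and 24.9 CPM in untreated WT libraries, with no overlap. This was a log2 difference of 0.28 (SE 0.068, edgeR adjusted p = 0.0217). The lid gene Psmd7 measured 142 and 141 CPM in untreated OVA libraries and 128 and 128 CPM in untreated WT libraries, also apart, a difference of 0.15 (SE 0.040, edgeR adjusted p = 0.0387). With 2 libraries a side these calls were weak. DESeq2 called neither, and leaving out 1 library left 0 to 2 calls (Psmd9 lost without untreated WT replicate 2 or either untreated OVA library, adjusted p = 0.0634 to 0.213, and Psmd7 without any of 6 libraries, the 4 untreated ones and treated replicate 2 of each line, 0.0546 to 0.182).

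With IFN-γ, 10 of 31 genes were higher in OVA cells and 0 lower, where 14.4% of all tested genes differed, 6.36% higher and 7.99% lower. All treated OVA libraries lay above all treated WT libraries for 17 of the 31 genes (15.1% of all tested genes) and below them for 0 (16%). Among the 10 called genes the 3 largest differences were those of Psmd4, Psma6 and Psmb1, whose treated libraries are given above and did not overlap between the lines. Psmd4, the ubiquitin receptor, differed by 0.17 log2 units (SE 0.034, edgeR adjusted p = 0.00325), Psma6 by 0.15 (SE 0.033, adjusted p = 0.00462) and Psmb1 by 0.15 (SE 0.036, adjusted p = 0.0105). Also higher were the core genes Psma3 and Psmb3, the ATPases Psmc1, Psmc3 and Psmc5, and the lid genes Psmd8 and Psmd11. In fold terms all these were small, at most 1.12-fold. The median difference over the 31 genes was 0.096 (28 above 0) with IFN-γ and 0.065 (26 above 0) without, and over all tested genes -0.00090 with IFN-γ and 0.0070 without.

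The count of 10 depended on single libraries and on the scaling. It was 17 without treated WT replicate 3, 4 without treated WT replicate 2, 6 without treated OVA replicate 2 and 5 without treated OVA replicate 3, and 20 when libraries were scaled by their totals only. Psma6, Psmc5 and Psmd4 passed under every alternative tried. Treated WT replicate 3 also had the highest core sum and the highest ratio of core to cap of its group.

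**Figure D4:**
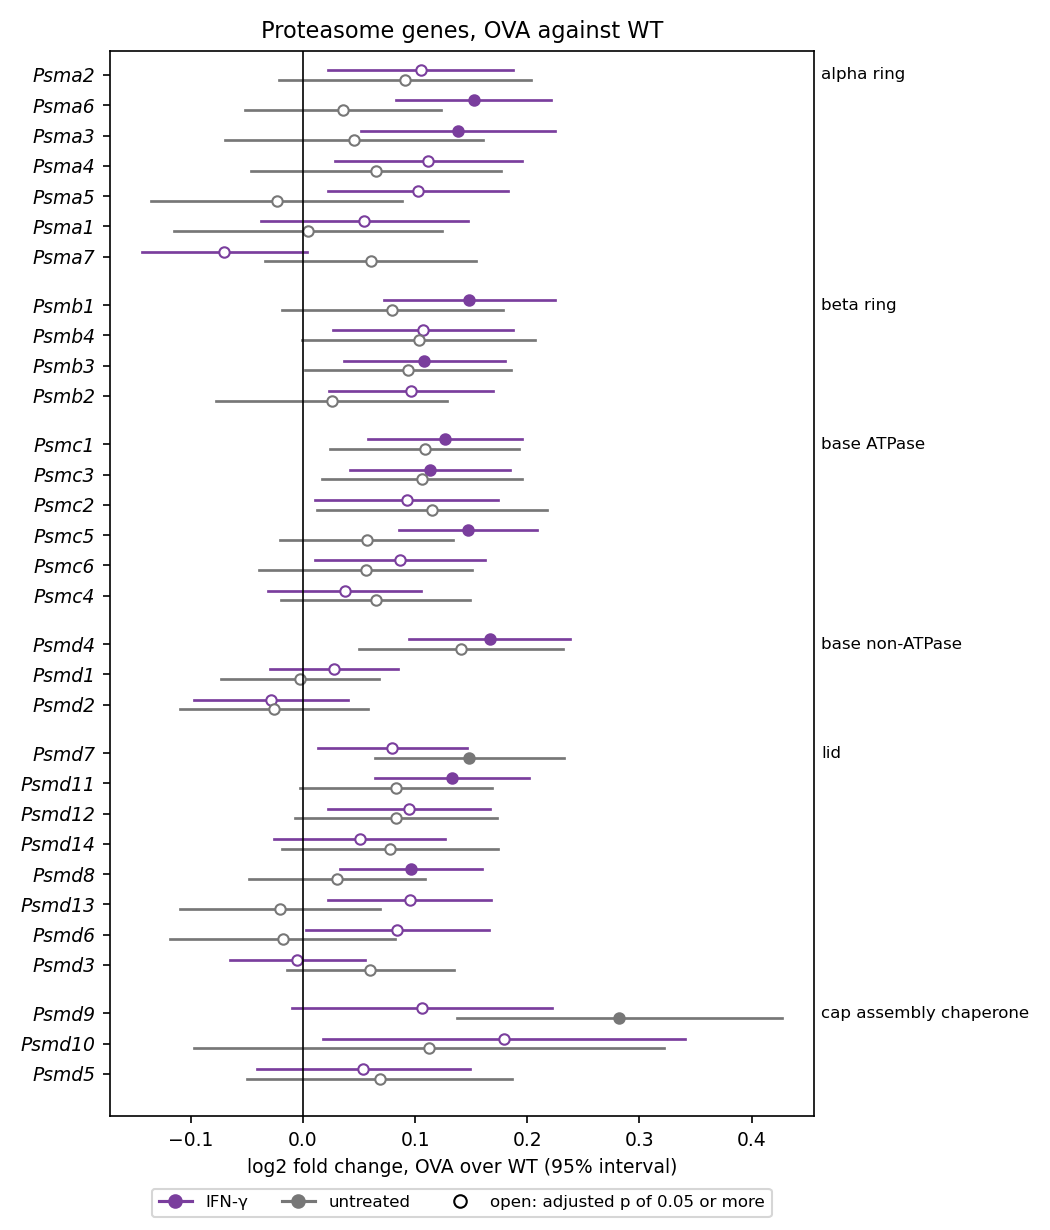
Log2 fold change of each of the 31 genes, OVA over WT, with IFN-γ (purple) and untreated (grey), with 95% intervals, grouped by role; open circles had an adjusted p of 0.05 or more. Most points lie just above 0, and all lie between -0.070 and 0.28.

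Among the genes that the symbol rule left out, the 3 catalytic subunits of the constitutive core, Psmb5, Psmb6 and Psmb7, were also measured. All 3 rose in OVA cells and 2 in WT cells, with median log2 changes of 0.19 in OVA cells and 0.12 in WT cells. For this list and those below, the shares over all tested genes were 25.9% up and 22.9% down in OVA cells. In WT cells these shares were 24.5% up and 19.7% down. Psmb6, which carries the caspase-like site, rose by 0.37 in OVA cells and 0.37 in WT cells. Psmb7, which carries the trypsin-like site, rose by 0.19 in OVA cells and 0.12 in WT cells. Psmb5, with the chymotrypsin-like site, rose by 0.18 in OVA cells and had 0.081 in WT cells (edgeR adjusted p = 0.154). In each line Psmb5 and Psmb7 lay within the range of the cap genes, and Psmb6 lay above it. With library totals or upper quartile scaling, or with DESeq2, only 1 of the 3 rose in WT cells.

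The immunoproteasome subunits that take the places of these 3 all rose in both lines. Psmb10 measured 289, 293 and 309.7 CPM in treated OVA libraries, against 7.56 and 7.52 CPM in untreated OVA libraries, and 278, 273 and 291 CPM in treated WT libraries, against 6.29 and 6.22 CPM in untreated WT libraries. Psmb8 reached 92.7, 90.0 and 94.2 CPM in treated OVA libraries, against 0.0548 and 0.0541 CPM in untreated OVA libraries, and Psmb9 reached 140.1, 138 and 146 CPM, against 0 and 0.162 CPM. In WT cells Psmb8 reached 81.9, 84.7 and 89.0 CPM with IFN-γ, against 0 and 0 CPM without, and Psmb9 140.4, 138 and 148 CPM, against 0.0552 and 0.168 CPM. Both were at or near 0 in untreated cells, so no fold is given for them.

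Of the 5 genes for other activators and inhibitors of the core, 3 rose in each line. Psme1 and Psme2, which form an IFN-γ-inducible activator ring, rose by 3.57 and 4.37 log2 units in OVA cells and by 3.63 and 4.21 in WT cells. Psmf1, an inhibitor of the core, rose by 0.79 in OVA cells and 0.78 in WT cells. Psme3, a nuclear activator, fell by 0.11 log2 units in OVA cells, where Psme4 also fell, and neither passed in WT cells, apart from 1 gene of the list that was called lower there under upper quartile scaling. Of these 2 falls in OVA cells, 0 to 2 were called across the alternatives. Of the 5 core assembly chaperones 2 rose in each line and 0 fell. Psmg4 rose by 1.01 in OVA cells and 1.03 in WT cells, and Pomp, which guides the joining of beta subunits, by 0.57 in OVA cells and 0.44 in WT cells.

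Of 7 further cap subunits and cap-bound factors, 4 rose and 1 fell in OVA cells, and 3 rose and 1 fell in WT cells (1 rose there under upper quartile scaling and 2 with library totals or DESeq2). Uchl5, a cap-bound deubiquitinating enzyme, rose by 0.31 in OVA cells and 0.21 in WT cells, and Ecpas, which binds the proteasome, by 0.24 in OVA cells and 0.28 in WT cells. The ubiquitin ligase Ube3c fell, with log2 changes of -0.16 in OVA cells and -0.17 in WT cells. The 9 shuttle factors and p97 genes went both ways. In OVA cells 3 rose and 3 fell (33.3% each), beside 25.9% up and 22.9% down over all tested genes. In WT cells 4 rose (44.4%) and 3 fell (33.3%), beside 24.5% up and 19.7% down. Under upper quartile scaling 2 rose and 5 fell in OVA cells, and 1 rose and 4 fell in WT cells. Among 6 ubiquitin and E1 genes 5 rose in OVA cells and 4 in WT cells, led by the polyubiquitin gene Ubb, at 0.74 in OVA cells and 0.69 in WT cells.

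Of 8 regulators of proteasome genes, 5 rose and 2 fell in OVA cells, and 3 rose and 1 fell in WT cells (2 fell there under upper quartile scaling). Nfe2l1, the transcription factor that restores proteasome gene expression when the proteasome is inhibited, rose by 0.32 in OVA cells and 0.21 in WT cells. Nfe2l2, a factor of the oxidative stress response, rose by 0.36 in OVA cells and 0.44 in WT cells. Mafk, a small Maf partner of these factors, rose by 0.48 in OVA cells and 0.57 in WT cells, and Mafg, another small Maf, fell, at -0.31 in OVA cells and -0.27 in WT cells. Maff, of the same family, rose by 1.09 in OVA cells and had 0.48 in WT cells (edgeR adjusted p = 0.101). Maff levels were low, at 4.09, 4.44 and 3.85 CPM in treated and 1.70 and 2.16 CPM in untreated OVA libraries. In WT cells they were 4.60, 4.12 and 2.57 CPM with IFN-γ and 2.98 and 2.41 CPM without. Ddi2, also on this list, measured 83.4, 85.4 and 80.7 CPM in treated OVA libraries, below 95.1 and 95.6 CPM in untreated ones. Its WT levels were 87.2, 87.2 and 82.8 CPM with IFN-γ and 85.6 and 91.4 CPM without. Ngly1 measured 24.7, 23.9 and 26.2 CPM in treated OVA libraries, above 19.4 and 18.0 CPM in untreated ones. Its WT levels overlapped, at 21.3, 21.8 and 19.4 CPM with IFN-γ and 19.3 and 19.8 CPM without.

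Complexes with an architecture like that of the lid were set beside the cap. In the COP9 signalosome 6 of 10 genes rose in each line, with 1 lower in OVA cells and 2 lower in WT cells, and medians of 0.15 in OVA cells and 0.16 in WT cells. In the initiation factor eIF3, 9 of 14 genes rose and 1 fell in each line, with medians of 0.13 in OVA cells and 0.17 in WT cells. The CCT chaperonin, an unrelated ring complex of 8 genes, had 2 higher and 2 lower in OVA cells and 3 higher and 0 lower in WT cells. Its medians were 0.041 in OVA cells and 0.065 in WT cells. In OVA cells the CCT shares, 25% up and 25% down, were near the 25.9% and 22.9% of all tested genes. In WT cells 37.5% of CCT genes rose and 0% fell, beside 24.5% and 19.7% of all tested genes. Upper quartile scaling turned the WT split of CCT to 1 higher and 3 lower. With that scaling 4 COP9 genes rose in OVA cells and 5 in WT cells. For eIF3 it gave 6 up in OVA cells, and 7 up and 2 down in WT cells. The differences between these lists and the cap were not tested.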

How the data were processed

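RNA from 10 libraries of melanoma cell lines was sequenced after poly-A selection, per the labels' protocols, which speak of tissue although the labels name cell lines. The table deposited by the authors holds raw read counts per Ensembl gene, and no row without a gene. Of its 77175 entries 21805 had no symbol, and the genes described here were matched by symbol only. HISAT2 2.0.5, featureCounts 1.6.0 and GRCm39 are named in the submitters' processing notes. How multi-mapping reads were counted, on which strand and with which annotation release is not stated in these sources. The kit is not stated to be stranded, so overlapping antisense reads cannot be told apart. Entries named as antisense to Psmd3, Psmd4, Psmb4, Psma6 and Psmb6 had 0 to 37 counts over all libraries, and the 5 named proteasome pseudogenes had 0 to 4.

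All 10 libraries were fitted together as 4 group means with edgeR 4.0.16 (R 4.3.3; TMM factors, filterByExpr, two-sided quasi-likelihood F test). P-values were adjusted by Benjamini-Hochberg over 15526 genes at a threshold of 0.05. Levels are CPM with TMM factors, with a precision set by 17728722 to 19642533 counts per library. Levels per length used GENCODE M21 exon and coding lengths, and no coordinates of the count table are printed. Replicates differed by more than sampling noise (chi-square per degree of freedom 2.06 to 3.61), so none was taken as a duplicate. The fit was also run on counts simulated from the spreads it had itself estimated, which cannot show that its model suits these data.

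The members and lists were chosen with earlier results of these data known, and the genes for promoter sequences after their values were seen. Values per library are given for the 3 largest called changes in each direction of each comparison and for further members that show a role. Paaf1 was not matched by symbol and is not counted. The alternatives were DESeq2 1.42.0, limma-voom (limma 3.58.1), library totals, upper quartile factors, 2 other count filters, a block by replicate number, fits on the compared groups alone, a threshold of 0.01, and each library left out in turn. The ovalbumin transgene was not analysed here.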

Additional observations from a re-analysis of the deposited data

How the results depend on the processing

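All 11 core genes rose in both lines under all 19 alternatives, and no called gene reversed. The number of the 31 genes that rose was 20 to 22 in OVA cells (22 as reported) and 19 to 23 in WT cells (23), and 19 to 22 and 20 to 24 with 1 library left out; 19 genes in each line passed under all 19. Medians were computed only with library totals, with upper quartile factors and with each library left out. Over these, the core medians ranged from 0.45 to 0.52 in OVA cells and 0.44 to 0.54 in WT cells. Those of the cap ranged from 0.092 to 0.18 in OVA cells and from 0.074 to 0.16 in WT cells. Genes that fell (0 as reported) numbered 1 in OVA cells with upper quartile factors and 0 to 1 with 1 library left out. In WT cells they numbered 3 with upper quartile factors, 2 with library totals, 1 with the filter of 1 CPM in 5 samples and 0 to 1 with 1 library left out. Upper quartile factors moved the median of all genes by -0.060 in OVA cells and -0.071 in WT cells, and the share of calls that were higher to 42.3% in OVA cells (53% as reported) and 40.6% in WT cells (55.5%). Between treated lines library totals moved that share to 60% (44.3% as reported). Genes higher in OVA than in WT cells with IFN-γ (10 as reported) numbered 20 with library totals, 3 at an adjusted p under 0.01 and 4 to 17 with 1 library left out. Untreated (2 as reported), they numbered 0 with DESeq2, 1 with upper quartile factors, 0 at an adjusted p under 0.01 and 0 to 2 with 1 library left out. The cause of these changes was not tested.

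Same-numbered deviations from the group means had correlations of -0.072 to 0.035. This cannot settle whether replicate numbers pair the samples, since in groups of 2 libraries the deviations mirror each other. Over all tested genes, the replicate block moved calls of the difference of responses from 12 positive and 41 negative to 26 and 139. With the replicate block, 22 genes rose in OVA cells, 22 in WT cells, 15 were higher in treated OVA than treated WT cells, 3 in untreated OVA than untreated WT cells, and 0 differed in response. The other pathway lists were run under the same alternatives, a step added after seeing the data. Which differences between lines a greater depth or more libraries would have shown was not tested.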
